A study of Mus musculus with 24 samples.

Results

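Nr2f1, Nr2f2, Pdgfra, Pdgfrb, Maf, Dcn, Lum and Ddr2 are genes known from the stromal progenitors of the fetal gonad, the cells between the cords and the vessels, and their RNA was followed here in sorted supporting cells. The 8 genes were taken by symbol from a given list and not by their values. All 8 were found among the 32040 symbols of the deposited tables, and all 8 passed the filter on low counts that left 16190 genes for testing.

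The supporting lineage gives Sertoli cells in XY gonads and pre-granulosa cells in XX gonads, and both arise from progenitors of the coelomic epithelium that they share with part of the stroma. Nr2f1 and Nr2f2 encode the orphan nuclear receptors COUP-TFI and COUP-TFII, transcription factors of many mesenchymes, and Maf encodes a leucine zipper factor with a role in the gonadal interstitium. Pdgfra and Pdgfrb encode the receptor kinases for platelet-derived growth factors, which Sertoli cells send to the testis interstitium. Ddr2 encodes a receptor kinase for fibrillar collagen, and Dcn (decorin) and Lum (lumican) encode small leucine-rich proteoglycans that bind collagen fibrils.

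RNA was measured in 24 libraries of mouse fetal gonad cells collected by fluorescence-activated sorting, in 8 groups of 3. Pre-granulosa cells came from female embryos of the Tg(Enh8-mCherry) line and Sertoli cells from male embryos of the SOX9-IRES-GFP line, each from embryonic day E11.5 over E12.5 and E13.5 to E15.5, and both lines carried a fluorescent reporter. The labels do not say which cells each reporter marks at each stage, whether cells of several embryos were pooled, or whether replicates came from separate animals, so p-values measure only the spread between these libraries. Sex, line and fluorophore changed together and cannot be told apart, and in such bulk RNA fewer cells of a type and less RNA per cell cannot be told apart either.

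Total estimated counts per library ran from 11275251 to 37256881, with the 3 XY E11.5 libraries deepest. The sort was checked with marker lists, summed as counts-per-million (CPM) on library sizes scaled by the trimmed mean of M values (TMM). The 7 Sertoli markers summed to between 8647 and 9923 CPM in XY libraries from E12.5 on, to 1527 to 2738 CPM at E11.5, and to 64.5 to 326 CPM in XX libraries. The 7 pre-granulosa markers summed to between 309 and 1303 CPM in XX libraries and to at most 72.5 CPM in XY libraries, where Foxl2 had no count in any E13.5 library. In XX E11.5 replicates 1, 2 and 3 these markers summed to 385, 932 and 309 CPM, and in later XX libraries to at least 844 CPM.

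XX E11.5 replicate 3 stood apart from replicates 1 and 2 before any comparison was made. It held 102 CPM of Lum against 5.77 and 3.81, 46.8 CPM of Dcn against 3.96 and 9.49, 68.3 CPM of Pdgfrb against 18.1 and 6.10, and 24.2 CPM of Ddr2 against 6.09 and 2.43. The same library had the highest sums of 16 interstitial stroma genes (3907 CPM against 1111 and 686), of 5 pericyte and smooth muscle genes (827 CPM against 260 and 156), of 6 immune genes (266 CPM against 161 and 93.5) and of 5 erythroid genes (25559 CPM against 10288 and 3190). In XY libraries the immune genes summed to at most 1.42 CPM at any stage. Among the XY E11.5 libraries, replicate 3 had the lowest Sertoli sum (1527 CPM against 2255 and 2738). It also had the highest stroma sum (2334 CPM against 1317 and 1730) and the highest level of each of the 8 genes but Pdgfra. The part of these other cells in the levels of the 8 genes was not tested. Values of XX E11.5 are given with and without XX E11.5 replicate 3 where it changes a call, a direction or a size by over 1.5 times.

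**Figure D1:**
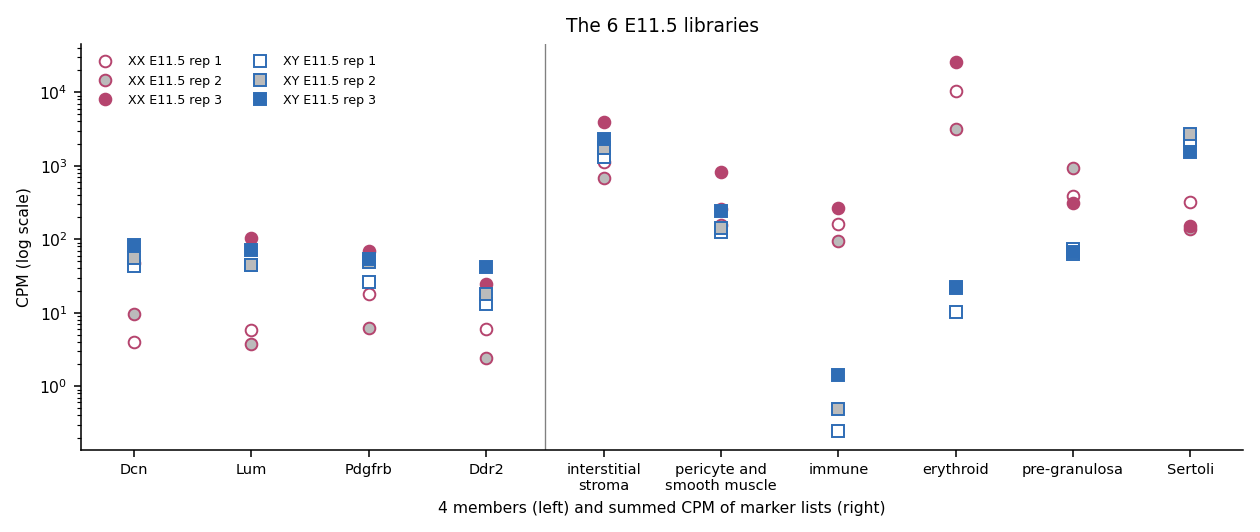
Levels of Dcn, Lum, Pdgfrb and Ddr2 (left of the line) and summed levels of marker lists (right) in each of the 6 E11.5 libraries, in CPM on a log axis; circles are XX, squares XY, and the fill gives the replicate. XX replicate 3 has 102 CPM of Lum where the other XX libraries have 5.77 and 3.81, and it also tops the interstitial stroma, pericyte, immune and erythroid sums.

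In XY cells all 8 genes fell from E11.5 to E12.5, as 24.8% of all genes tested did. Of the 8, 7 were then called higher in XX than in XY cells at E12.5, beside 30.5% of all genes, and 7 at E13.5, beside 32.8%. At E11.5 the order was another, with Nr2f1, Pdgfra and Dcn higher in XY cells and Maf higher in XX cells. Later, Dcn and Lum reached their highest XX levels outside E11.5 at E15.5, and Pdgfra, Pdgfrb, Dcn and Ddr2 rose again in XY cells between E13.5 and E15.5. Calls are those with an adjusted p under 0.05 in the quasi-likelihood test of edgeR, fitted over all 24 libraries and adjusted over all genes tested.

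**Figure D2:**
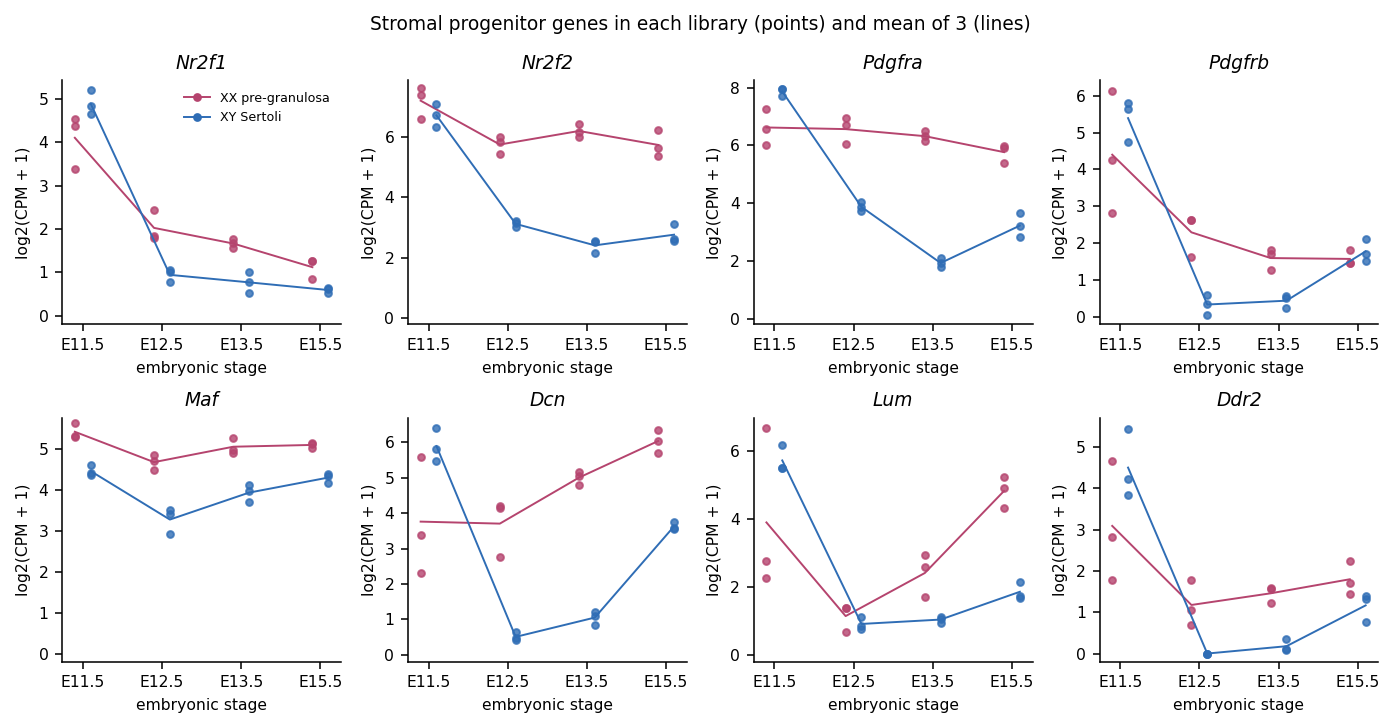
Level of each of the 8 genes in every library, as log2(CPM + 1) against embryonic stage; points are libraries (red XX, blue XY) and lines join the means of 3. The XY points drop between E11.5 and E12.5 in all 8 panels, while the XX points of Dcn and Lum climb to E15.5.

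Nr2f2 was the more abundant of the 2 orphan receptor genes and fell in XX cells as well, by 1.51 ± 0.25 on the log2 scale from E11.5 to E12.5 (adjusted p = 0.000183, edgeR). Its XX levels were 192, 94.9 and 166 CPM at E11.5, then 61.8, 55.1 and 42.2 CPM at E12.5, then 62.7, 70.2 and 84.1 CPM at E13.5, and 39.8, 47.8 and 73.3 CPM at E15.5. Its XY levels were 79.3, 104 and 133 CPM at E11.5, then 8.22, 7.12 and 7.77 CPM at E12.5, then 4.87, 3.51 and 4.68 CPM at E13.5, and 5.12, 7.69 and 4.87 CPM at E15.5. The sexes overlapped at E11.5 and were apart at every later stage. The XX minus XY difference was 0.52 ± 0.25 (log2, SE) at E11.5, where edgeR gave an adjusted p of 0.097, and 2.78 ± 0.28 at E12.5 (adjusted p = 2.837e-08), a 6.89-fold difference of mean CPM. It was widest at E13.5, where it was 4.06 ± 0.29 (adjusted p = 2.2e-10), or 16.6-fold. The E11.5 difference was called without XX E11.5 replicate 2 (0.76, adjusted p = 0.0124) and without XY E11.5 replicate 3 (0.74, adjusted p = 0.0351).

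Nr2f1 fell in both sexes and fell further in XY cells. Its XX levels were 19.8, 9.49 and 22.1 CPM at E11.5, 2.49, 2.55 and 4.44 CPM at E12.5, then 1.93, 2.41 and 2.19 CPM at E13.5, and 1.39, 0.80 and 1.38 CPM at E15.5. Its XY levels were 23.97, 27.4 and 35.5 CPM at E11.5, 0.70, 1.08 and 1.01 CPM at E12.5, then 0.72, 0.44 and 1.001 CPM at E13.5, and 0.52, 0.56 and 0.44 CPM at E15.5 (12, 10 and 7 counts). The 3 XY libraries lay above the 3 XX libraries at E11.5, and below them at each later stage. From E11.5 to E12.5 it changed by -2.44 ± 0.30 (log2, SE) in XX cells (adjusted p = 9.321e-06, edgeR) and by -4.95 ± 0.34 in XY cells (adjusted p = 1.741e-10). Over all 4 stages the mean fell 14.4-fold in XX and 57.0-fold in XY cells.

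The E11.5 difference of Nr2f1 was -0.76 ± 0.27 (XX minus XY, log2, SE) with an adjusted p of 0.0291 in edgeR. Same-numbered libraries deviated together at this stage, and with the replicate number as a block in a fit of only these 6 libraries the value was -0.83 with an adjusted p of 0.0767. A fit of those libraries without the block gave an adjusted p of 0.142. Without XX E11.5 replicate 2 the adjusted p was 0.119 (difference -0.48), and without XY E11.5 replicate 3 it was 0.137 (difference -0.58). At E15.5 the difference of 1.22 ± 0.43 (adjusted p = 0.0151) became 1.06 with an adjusted p of 0.072 without XX E15.5 replicate 3, and limma on log2(TPM + 1) gave an adjusted p of 0.479.

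Maf was higher in XX than in XY cells at all 4 stages. The XX ranges were 38.4 to 48.4 CPM at E11.5, 21.4 to 27.7 CPM at E12.5, 29.0 to 37.8 CPM at E13.5 and 31.3 to 34.5 CPM at E15.5. The XY ranges were 19.6 to 23.4, 6.54 to 10.3, 12.1 to 16.4 and 16.8 to 20.0 CPM at the same stages, so that no XY library reached an XX library of its stage. The differences were 0.995 ± 0.15, 1.48 ± 0.16, 1.17 ± 0.16 and 0.83 ± 0.16 (log2, SE), and the largest of the 4 adjusted p in edgeR was 8.685e-05, at E15.5. Both sexes dipped at E12.5, by -0.76 ± 0.16 in XX (adjusted p = 0.000831) and by -1.25 ± 0.16 in XY cells (adjusted p = 1.334e-06). In XY cells Maf then rose by 0.71 ± 0.16 to E13.5 (adjusted p = 0.00457).

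Pdgfra was the PDGF receptor gene with most RNA, and its sex difference turned over between E11.5 and E12.5. In XY cells it stood at 246, 209 and 244 CPM at E11.5, fell to 12.3, 13.4 and 15.3 CPM at E12.5 and to 2.76, 2.43 and 3.25 CPM at E13.5, and stood at 8.16, 11.51 and 6.08 CPM at E15.5. In XX cells it held 93.9, 63.9 and 154 CPM at E11.5, 122, 102 and 65.4 CPM at E12.5, then 78.3, 69.4 and 90.2 CPM at E13.5, and 41.2, 59.0 and 62.6 CPM at E15.5. No group of one sex overlapped the other sex at its stage, with XY above at E11.5 and XX above later. The XX minus XY difference was -1.17 ± 0.26 (log2, SE) at E11.5 (adjusted p = 0.00123, edgeR), 2.82 ± 0.28 at E12.5 (adjusted p = 3.496e-08), 4.81 ± 0.32 at E13.5 (adjusted p = 7.913e-11) and 2.66 ± 0.29 at E15.5 (adjusted p = 8.068e-08). At E13.5 this was a 28.2-fold difference of mean CPM.

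No single XX step of Pdgfra was called, with changes of -0.10 ± 0.26, -0.29 ± 0.26 and -0.54 ± 0.26 (log2, SE), with adjusted p of 0.803, 0.434 and 0.136 in edgeR. Over the whole course it fell by 0.93 ± 0.26 on the log2 scale (adjusted p = 0.00488). The test for any change over the XX stages gave an adjusted p of 0.0171, 0.0912 without XX E15.5 replicate 1 and 0.0552 in a fit of the XX libraries alone. In XY cells it fell by 4.09 ± 0.30 and then by 2.27 ± 0.32 on the log2 scale, and rose by 1.60 ± 0.32 to E15.5 (adjusted p = 0.00117).

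Nr2f2 and Pdgfra had the most alike courses among the 8 genes outside E11.5, with a Pearson correlation of log2(CPM + 1) of 0.963 over the 18 later libraries and 0.946 over all 24, which share stage and sex. Over all 24 libraries Pdgfrb and Ddr2 were closer (0.955), and Nr2f2 and Pdgfra differed at E11.5, where only Pdgfra was called. Upstream sequences are shown for Nr2f2 and Pdgfra only, and they were not picked by this correlation. For Nr2f1 and Ddr2 the table's windows lie inside the GENCODE gene and are not printed. Those of Pdgfrb, Dcn, Lum and Maf are not used here. Each run is the 250 bases before the transcription start in the RefSeq promoter table (GRCm38.p6), given 5′ to 3′ on the strand of the gene, with CG dinucleotides in capitals. Nr2f2 is at chr7:70366747-70366996 on the minus strand and Pdgfra at chr5:75152001-75152250 on the plus strand.
Nr2f2: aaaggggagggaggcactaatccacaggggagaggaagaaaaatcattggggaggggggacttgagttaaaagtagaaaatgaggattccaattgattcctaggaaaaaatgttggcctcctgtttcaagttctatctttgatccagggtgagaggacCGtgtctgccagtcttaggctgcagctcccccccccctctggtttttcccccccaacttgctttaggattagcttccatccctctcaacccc
Pdgfra: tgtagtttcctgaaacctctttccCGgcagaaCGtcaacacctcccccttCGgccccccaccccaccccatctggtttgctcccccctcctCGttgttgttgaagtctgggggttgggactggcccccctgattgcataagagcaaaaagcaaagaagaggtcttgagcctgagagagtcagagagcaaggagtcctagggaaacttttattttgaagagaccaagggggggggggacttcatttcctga
The Nr2f2 run has 50% G and C with 1 CG, and the Pdgfra run 54.4% with 4, where the promoters of the table have a median of 52.4% and 6 CG. Both strands of each run were searched for short motifs, none of which contains another, and there were 0 matches. The nuclear receptor motif AGGTCA is held by 14% of 32851 promoters of the table. The SOX motif AACAAT is held by 9.42% of them. The GATA motif AGATAA is held by 9.99% of them, and for the MAF motif TGCTGA the share is 16.1%. No match says only that these letters are not in these windows.

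Pdgfrb shared the XY fall but not the late XX excess. Its XY levels were 26.0, 48.4 and 54.4 CPM at E11.5, 0.047, 0.518 and 0.274 CPM at E12.5 (1, 12 and 6 counts), then 0.442, 0.478 and 0.179 CPM at E13.5, and 1.87, 3.31 and 2.28 CPM at E15.5. Its XX levels were 18.1, 6.10 and 68.3 CPM at E11.5, 5.21, 5.14 and 2.11 CPM at E12.5, then 1.41, 2.53 and 2.27 CPM at E13.5, and 1.74, 2.53 and 1.74 CPM at E15.5. The sexes overlapped at E11.5 and at E15.5, with XX above XY at the stages between. The XX minus XY difference was 3.84 ± 0.83 (log2, SE) at E12.5 (adjusted p = 0.000475, edgeR) and 2.55 ± 0.86 at E13.5 (adjusted p = 0.0132), and -0.31 ± 0.69 at E15.5 (adjusted p = 0.706). Leaving out XY E13.5 replicate 3 ended the E13.5 call (2.18, adjusted p = 0.0596), and on log2(TPM + 1), a scale that shrinks changes of low genes, limma gave adjusted p of 0.0504 at E12.5 and 0.364 at E13.5. At E11.5 the difference was -0.49 ± 0.53 (adjusted p = 0.492) with all libraries and -1.84 ± 0.45 (adjusted p = 0.00304) without XX E11.5 replicate 3.

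Ddr2 had no count in any of the 3 XY E12.5 libraries, where 3 counts per library would be 0.129 to 0.14 CPM. In XY cells it came down from 13.2, 17.8 and 42.2 CPM at E11.5, was at 0.055, 0.279 and 0.071 CPM at E13.5 (1, 7 and 2 counts), and stood at 0.694, 1.52 and 1.65 CPM at E15.5. The XX levels were 6.09, 2.43 and 24.2 CPM at E11.5, 2.41, 1.09 and 0.615 CPM at E12.5, then 1.33, 1.99 and 1.96 CPM at E13.5, and 1.74, 2.27 and 3.70 CPM at E15.5. Against the floor of 3 counts per library, the XY mean fell at least 180-fold from E11.5 to E12.5 (adjusted p = 1.069e-06, edgeR). On the same floor the XX mean at E12.5 was at least 10.1-fold above the XY mean (adjusted p = 0.00111). These bounds are for group means and not for single libraries. The XX excess at E13.5 was 3.62 ± 1.02 (log2, SE; adjusted p = 0.00451), and at E15.5 it was 1.06 ± 0.75 (adjusted p = 0.212), although the groups did not overlap. On log2(TPM + 1) limma gave adjusted p of 0.143 at E12.5 and 0.13 at E13.5.

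In XX cells Ddr2 fell by 2.96 ± 0.70 on the log2 scale from E11.5 to E12.5 (adjusted p = 0.00351, edgeR). Without XX E11.5 replicate 3 this was -1.60 with an adjusted p of 0.05004, and the test for any change over the XX stages went to an adjusted p of 0.0809. From E11.5 to E15.5 the change was -2.03 ± 0.67 (adjusted p = 0.0147). It was -0.74 with an adjusted p of 0.286 without that library and -1.84 with an adjusted p of 0.0553 without XX E15.5 replicate 1. A fit of only the libraries compared gave an adjusted p of 0.0671.

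Dcn fell steeply in XY cells and climbed in XX cells. The XY levels were 43.3, 55.3 and 83.2 CPM at E11.5, 0.327, 0.388 and 0.548 CPM at E12.5 (7, 9 and 12 counts), then 0.774, 1.16 and 1.32 CPM at E13.5, and 10.9, 12.4 and 10.8 CPM at E15.5. The XX levels were 3.96, 9.49 and 46.8 CPM at E11.5, 16.8, 17.2 and 5.80 CPM at E12.5, then 26.6, 32.2 and 35.0 CPM at E13.5, and 51.3, 65.0 and 80.9 CPM at E15.5. The XY fall was 144-fold in mean CPM (-7.15 ± 0.79, log2, SE; adjusted p = 2.794e-07, edgeR), and the XX mean at E12.5 was 31.5-fold above the XY mean (4.96 ± 0.79, adjusted p = 1.918e-05). The sexes differed by 4.81 ± 0.69 at E13.5 (adjusted p = 4.222e-06) and by 2.53 ± 0.56 at E15.5 (adjusted p = 0.000492).

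From E11.5 to E15.5 Dcn rose in XX cells by 1.73 ± 0.54 (log2, SE; adjusted p = 0.0099, edgeR). The rise was 3.22 ± 0.41 (adjusted p = 2.922e-06) without XX E11.5 replicate 3, and 1.32 with an adjusted p of 0.0661 without XX E11.5 replicate 2. In a fit of only the libraries compared its adjusted p was 0.103, and for the E11.5 sex difference of Dcn it was 0.199. With the replicate number as a block in that fit of 6 libraries the E11.5 difference was -2.24 (adjusted p = 0.037). No single XX step was called with all libraries, and without XX E11.5 replicate 3 the steps to E13.5 (1.20, adjusted p = 0.00773) and to E15.5 (1.04, adjusted p = 0.0198) were; the step to E13.5 was also called without XX E11.5 replicate 1 (1.20, adjusted p = 0.0335). At E11.5 the XX minus XY difference was -1.61 ± 0.54 (adjusted p = 0.0212), and the groups overlapped through XX replicate 3. This difference was -3.18 ± 0.41 (adjusted p = 5.041e-06) without that library, and it missed the threshold without XX E11.5 replicate 1 (-1.13, adjusted p = 0.0588), XX E11.5 replicate 2 (-1.28, adjusted p = 0.101) or XY E11.5 replicate 3 (-1.31, adjusted p = 0.086).

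With all libraries Lum was called rising in XX cells only from E13.5 to E15.5, and its timing against that of Dcn was not tested. In XX cells Lum was at 5.77, 3.81 and 102 CPM at E11.5 and at 1.59, 1.59 and 0.615 CPM at E12.5. It was then at 2.30, 5.02 and 6.65 CPM at E13.5, and at 19.0, 29.3 and 37.02 CPM at E15.5. In XY cells it was at 44.4, 44.2 and 72.1 CPM at E11.5, 0.70, 1.16 and 0.822 CPM at E12.5, then 0.94, 1.08 and 1.18 CPM at E13.5, and 2.21, 3.48 and 2.34 CPM at E15.5. The sexes overlapped at E12.5 and were apart at E13.5 and E15.5. The XX rise from E13.5 to E15.5 was 2.61 ± 0.82 (log2, SE; adjusted p = 0.0246, edgeR), or 6.11-fold, and the XX excess at E15.5 was 3.42 ± 0.86 (adjusted p = 0.00158), or 10.6-fold. The E13.5 difference of 2.11 ± 0.96 missed the threshold (adjusted p = 0.0602), and was called by DESeq2 (2.18, adjusted p = 0.0133), by limma on log2(TPM + 0.1) (adjusted p = 0.0492) and in a fit of only the libraries compared (adjusted p = 0.000195).

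Several calls of Lum changed when single libraries were left out. The XX rise from E13.5 to E15.5 missed the threshold without XX E13.5 replicate 1 (2.31, adjusted p = 0.099), XX E13.5 replicate 2 (2.67, adjusted p = 0.0678) or XX E15.5 replicate 3 (2.37, adjusted p = 0.0807), all in edgeR, and with no filter beyond 1 count (2.61, adjusted p = 0.0575). The E13.5 sex difference was called without XX E13.5 replicate 1 (2.42, adjusted p = 0.0469) and without XX E11.5 replicate 1, 2 or 3 (2.12 each, adjusted p = 0.0334, 0.0311 and 8.734e-05). The XX E11.5 libraries are in neither group of this difference, but all groups share the estimate of spread. Without XX E11.5 replicate 3 the SE was 0.39, against 0.96 with all libraries, while the difference itself hardly moved. Between E11.5 and E15.5 Lum changed in XX cells by -0.37 ± 0.73 (adjusted p = 0.683) with all libraries, and by 2.52 ± 0.38 (adjusted p = 1.75e-05) without XX E11.5 replicate 3, so the direction turned on that library. Without it the XX fall to E12.5 was -1.90 ± 0.41 (adjusted p = 0.00231), against -4.86 ± 0.92 (adjusted p = 0.000608) with it.

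At E11.5, 1 of the 8 genes was called higher in XX cells (21.4% of all genes tested were) and 3 were called higher in XY cells (20.6% of all genes). The median difference of the 8 was -0.65 on the log2 scale, against 0.018 over all genes. Without XX E11.5 replicate 3, 1 gene (Maf) was higher in XX cells, beside 20.3% of all genes, and 6 were higher in XY cells, beside 20.7%, with a median of -1.71. Pdgfrb, Lum and Ddr2 joined Nr2f1, Pdgfra and Dcn there. Lum was then at -3.50 ± 0.40 (log2, SE; adjusted p = 7.489e-07, edgeR), against -0.53 ± 0.72 (adjusted p = 0.584) with all libraries. Ddr2 was at -2.54 ± 0.57 (adjusted p = 0.00182), against -1.17 ± 0.61 (adjusted p = 0.134) with all libraries.

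At E12.5, 7 genes were called higher in XX (30.5% of all genes) and 0 in XY cells (31.5% of all genes), with a median of 2.80. At E13.5, 7 were called higher in XX (32.8%) and 0 in XY cells (33.3%), with a median of 3.08, and Lum was the member not called at either stage. At E15.5, 6 were called higher in XX (34.9%) and 0 in XY cells (34.4%), with a median of 1.88, and Pdgfrb and Ddr2 were not called. At an unadjusted p under 0.05 the numbers of members were 7, 8 and 6 at these stages, all higher in XX. DESeq2 likewise called none higher in XY cells. Of 16 interstitial stroma genes, 12 were called higher in XX and 3 in XY cells at E12.5 (median 3.32). At E13.5 these numbers were 12 and 2 (median 3.32), and at E15.5 they were 5 and 3 (median 0.64). All 6 immune genes were called higher in XX cells at every stage, E11.5 included, and all 5 surface epithelium genes from E12.5 on. Of 5 endothelial genes, 1 was higher in XX and 1 in XY cells at E12.5. By E13.5, 3 of them were higher in XX and 2 in XY cells (median 2.397), and by E15.5 2 and 1. Of 5 pericyte and smooth muscle genes, 3 were higher in XX and 2 in XY cells at E12.5 (median 5.565). The erythroid list then summed to 504 to 1186 CPM in XX and 16.1 to 30.0 CPM in XY libraries. Of its 5 genes, 3 were higher in XX and 1 in XY cells. The part of such cells in the XX excess of the 8 genes was not tested.

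**Figure D3:**
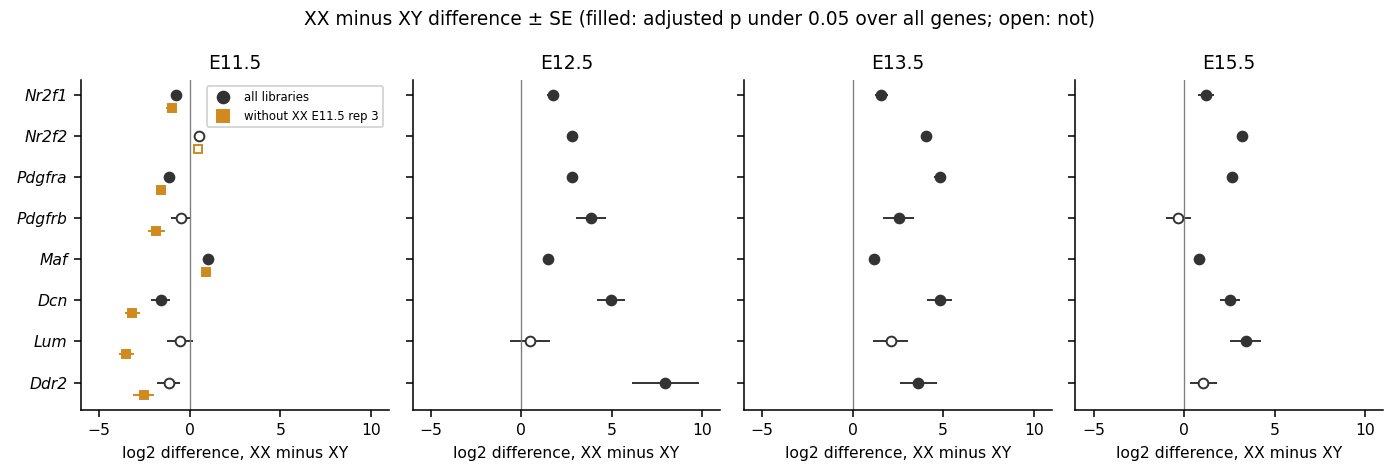
XX minus XY difference of each gene at each stage on the log2 scale, with a standard error computed from the F statistic of edgeR. Filled symbols are called at an adjusted p under 0.05, and orange squares at E11.5 leave out XX replicate 3. Most points lie left of 0 at E11.5 and right of 0 at E12.5 and E13.5; the Ddr2 point at E12.5 is a fitted value against 0 counts and not a bound.

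The sex by stage interaction, which asks whether the XX minus XY difference changed with stage, was called for 7 of the 8 genes, where 70.1% of all genes were called. Its adjusted p in edgeR was smallest for Pdgfra (2.506e-09) and Nr2f2 (6.042e-07). Maf missed the threshold (adjusted p = 0.0651) and was called without any of 9 single libraries, with adjusted p between 0.0197 and 0.0426. These were XX E11.5 replicates 1, 2 and 3, XX E12.5 replicate 3, XY E11.5 replicates 1 and 2, XY E12.5 replicates 2 and 3, and XY E13.5 replicate 3. Maf was also called by DESeq2 (adjusted p = 0.0374) and by limma on log2(TPM + 1) (adjusted p = 0.0139) and log2(TPM + 0.1) (adjusted p = 0.00566). Lum (adjusted p = 0.0227) missed it without XY E15.5 replicate 1 (adjusted p = 0.0515) and with no filter beyond 1 count (adjusted p = 0.0573).

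The step from E11.5 to E12.5 held most of the change. In XY cells 8 of the 8 genes fell (24.8% of all genes) and 0 rose (27.1%), with a median of -5.42 on the log2 scale. In XX cells 6 fell (17.3%) and 0 rose (16.7%), with a median of -1.97, and Pdgfra and Dcn were not called. In a fit of only these 6 XX libraries Pdgfrb, Lum and Ddr2 missed the threshold (adjusted p = 0.0715, 0.0655 and 0.0761). Without XX E11.5 replicate 3, 5 fell (12.9% of all genes) and 0 rose (12.3%), with a median of -1.48. Pdgfrb was then at -1.54 (adjusted p = 0.0157) against -2.88 ± 0.59 (adjusted p = 0.00104) with that library, Ddr2 was not called, and Dcn was at 0.97 (adjusted p = 0.0731) against -0.58 and Pdgfra at 0.30 (adjusted p = 0.395) against -0.10, and none of these values of Dcn and Pdgfra was called. Over this step the summed interstitial stroma list went from 1317 to 2334 CPM down to 600 to 627 CPM in XY cells. Of its 16 genes 14 fell there and 1 rose, with a median of -4.91 on the log2 scale. In XX cells the list summed to 1111, 686 and 3907 CPM at E11.5 and to 591 to 922 CPM at E12.5. Of the XX E11.5 libraries only replicates 1 and 3 thus lay above all E12.5 libraries. In XX cells 6 of the 16 genes fell and 1 rose, with a median of -0.49. The XY Sertoli markers rose over the same step from at most 2738 CPM to at least 8845 CPM, and the XX erythroid list went from at least 3190 CPM to at most 1186 CPM. The part of these shifts in the fall of the 8 genes was not tested.

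From E12.5 to E13.5 little was called. In XX cells 0 genes rose (14.2% of all genes) and 0 fell (17.4%) in edgeR, 2 (Maf and Dcn) had an unadjusted p under 0.05, and DESeq2 called 1 (Maf, 0.41, adjusted p = 0.0336). Single libraries moved this count, since Maf was called without any of XX E12.5 replicate 2, XX E15.5 replicate 2, XY E11.5 replicate 3, XY E12.5 replicate 1, XY E13.5 replicate 1 or XY E15.5 replicates 2 and 3 (0.42 to 0.51, adjusted p = 0.0194 to 0.05), and Lum without XX E11.5 replicate 3 (1.84, adjusted p = 0.00109). In XY cells 1 gene, Maf, rose (8.02%) and 1, Pdgfra, fell (8.62%). Nr2f2 changed there by -0.83 ± 0.29 (log2, SE) with an adjusted p of 0.0573 in edgeR, and was called without XX E11.5 replicate 2 (-0.81, adjusted p = 0.0316) or XX E15.5 replicate 3 (-0.83, adjusted p = 0.0402).

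From E13.5 to E15.5, 1 gene, Lum, rose in XX cells and 0 fell (12.8% of all genes in either direction). The change of Nr2f1 was -0.87 ± 0.36 (log2, SE; adjusted p = 0.0797, edgeR) and was called without XX E11.5 replicate 2 (-0.91, adjusted p = 0.0268). In XY cells 4 rose (11.51% of all genes) and 0 fell (9.79%). Dcn rose 10.5-fold in mean CPM there (3.35 ± 0.68, adjusted p = 0.00135), Pdgfrb 6.78-fold (2.78 ± 0.84, adjusted p = 0.0216), Ddr2 by 3.12 ± 1.05 (adjusted p = 0.0421) and Pdgfra 3.05-fold. For all 4 the XY E15.5 libraries lay above the E13.5 libraries and below those of E11.5. Lum changed by 1.31 ± 0.998 (adjusted p = 0.399), and was called without XX E11.5 replicate 3 (1.30, adjusted p = 0.026).

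The rises of Pdgfrb and Ddr2 in XY cells missed the threshold on log2(TPM + 1) in limma (adjusted p = 0.412 and 0.465) and with no filter beyond 1 count (adjusted p = 0.0577 and 0.102). That of Pdgfrb missed the threshold in edgeR without XY E13.5 replicate 2 (3.06, adjusted p = 0.0503), XY E13.5 replicate 3 (2.40, adjusted p = 0.104) or XY E15.5 replicate 2 (2.49, adjusted p = 0.0785). That of Ddr2 missed it without any of 10 libraries, with adjusted p between 0.0502 and 0.15. These were XX E12.5 replicate 2, XX E13.5 replicates 1, 2 and 3, XX E15.5 replicate 2, XY E13.5 replicates 1, 2 and 3, and XY E15.5 replicates 2 and 3, and its value ran from 2.74 to 4.14. Other lists moved at this step in XY cells: 10 of 16 interstitial stroma genes rose and 1 fell, with a median of 2.06. The summed level of that list was 711 to 756 CPM at E13.5 and 698 to 746 CPM at E15.5. Among them Tcf21, a stromal transcription factor, rose by 2.92 ± 0.53 (adjusted p = 0.000446), and the collagen gene Col3a1 by 2.25 ± 0.38 (adjusted p = 0.00025). The pericyte list went from 49.97 to 54.9 CPM up to 87.2 to 94.5 CPM, the germ cell list from 4.59 to 8.97 CPM up to 37.8 to 68.2 CPM, and the erythroid list from 35.5 to 47.9 CPM up to 87.0 to 113 CPM. Of the 5 genes of each list, 1 pericyte, 5 germ cell and 1 erythroid gene rose and none fell. Their part in the rise of the 4 genes was not tested.

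**Figure D4:**
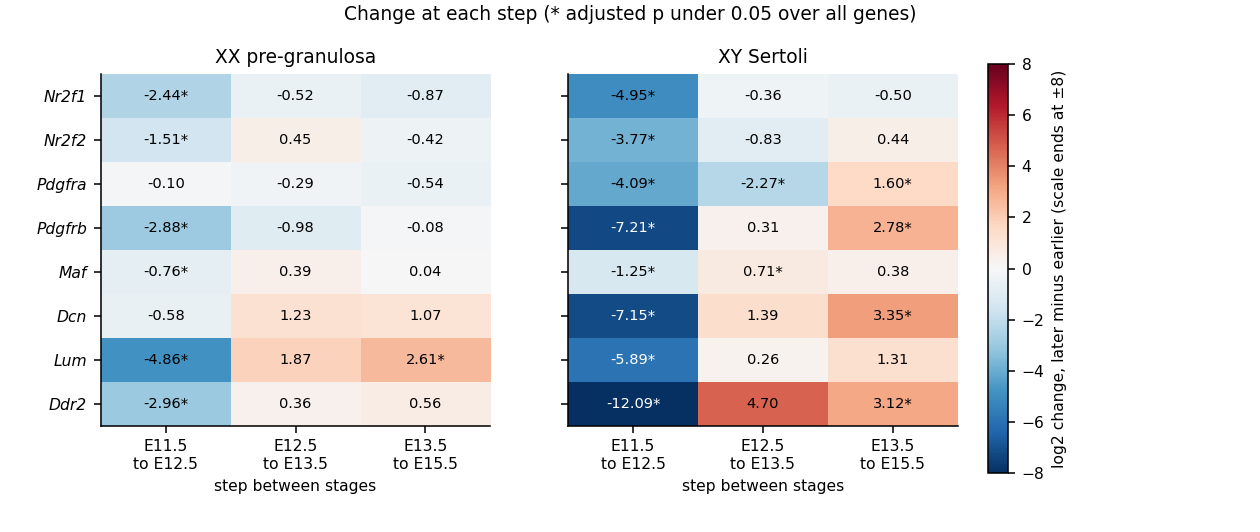
Change of each gene at each step between stages, as the log2 difference of the later minus the earlier stage in edgeR; blue is lower later, red higher later, and an asterisk marks an adjusted p under 0.05. The first XY column is blue in all 8 rows, and the last has 4 marked rises; the Ddr2 values into and out of XY E12.5 are fitted against 0 counts and are not bounds.

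Over the whole course from E11.5 to E15.5, 1 gene (Dcn) rose in XX cells (28.3% of all genes) and 5 fell (31.1%). Without XX E11.5 replicate 3, 2 rose (Dcn and Lum, beside 22.7% of all genes) and 4 fell (30%), with Ddr2 no longer called and Pdgfrb at -2.65 against -3.94 ± 0.65 with all libraries. Pdgfra was then at -0.60 against -0.93. In XY cells 0 rose (30.2%) and 7 fell (27.5%), with a median of -4.22. Maf was the XY exception, at -0.17 ± 0.16 (log2, SE; adjusted p = 0.376, edgeR). In XX cells Maf changed by -0.33 ± 0.15 (adjusted p = 0.0686) and was called without any of 11 single libraries, at -0.28 to -0.46 over all 24 fits that leave out 1. These 11 were XX E11.5 replicates 1 and 2, XX E12.5 replicate 1, XY E11.5 replicates 1 and 2, XY E12.5 replicates 1, 2 and 3, XY E13.5 replicates 1 and 3, and XY E15.5 replicate 1, with adjusted p between 0.0207 and 0.0487. Tests for any change over the stages called all 8 genes in XX (74% of all genes) and all 8 in XY cells (70.3%).

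Levels of 2 genes were compared per length, in the deposited transcripts-per-million (TPM). Nr2f2 exceeded Nr2f1 in all 24 libraries, and the ratio was higher at later XX stages. It was 7.07 to 9.35 in XX at E11.5, 8.05 to 23.5 at E12.5, 23.4 to 31.9 at E13.5 and 30.9 to 65.4 at E15.5, and 1.88 to 2.42 in XY at E11.5 and 3.46 to 10.1 at later XY stages. Each sex thus had its own range at every stage. Pdgfra exceeded Pdgfrb in all libraries too, by 18.9 to 49.7 in XX cells from E12.5 on and by 2.71 to 4.04 in XY cells at E15.5. The ratio of 307 in XY E12.5 replicate 1 rests on a single count of Pdgfrb. Dcn over Lum was 13.3 to 15.3 in XX cells at E12.5, 7.43 to 16.3 at E13.5 and 3.09 to 3.802 at E15.5, and it was 0.965, 3.52 and 0.64 in XX E11.5 replicates 1, 2 and 3.

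**Figure D5:**
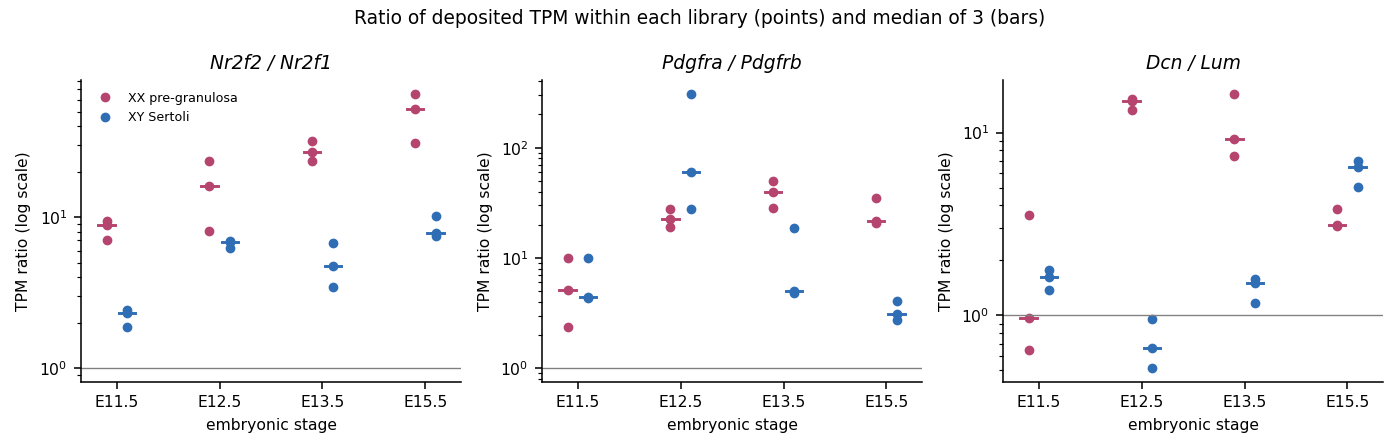
Ratio of deposited TPM of Nr2f2 over Nr2f1, Pdgfra over Pdgfrb and Dcn over Lum in each library (points) by stage, on a log axis, with the median of 3 as a bar; the grey line is a ratio of 1. The XX ratio of Nr2f2 over Nr2f1 goes from 7.07 to 9.35 at E11.5 to between 30.9 and 65.4 at E15.5.

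The ligand genes of the PDGF receptors were called in both directions. Of 4 tested, 2 were called higher in XX (30.5% of all genes) and 2 higher in XY cells (31.5%) at E12.5. Pdgfa, which encodes a ligand of the alpha receptor, stood at 105 CPM in XY and 14.4 CPM in XX cells (means of 3; XX minus XY -2.87 ± 0.15, log2, SE; adjusted p = 7.289e-13, edgeR), after 22.5 and 25.2 CPM at E11.5. In XY cells Pdgfa thus rose by 2.22 ± 0.14 (adjusted p = 6.737e-11) over the step at which Pdgfra fell. Pdgfd, which encodes a ligand of the beta receptor, went the other way, with 22.3 CPM in XX and 2.52 CPM in XY cells (3.14 ± 0.20, adjusted p = 1.202e-11). Kit, a related receptor kinase gene, was also higher in XX cells at E12.5, by 1.71 ± 0.36 (adjusted p = 0.000323).

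The discoidin receptor genes went opposite ways in XY cells from E11.5 to E12.5. Ddr1, the paralogue of Ddr2, rose there by 1.13 ± 0.20 (log2, SE, adjusted p = 7.482e-05, edgeR), the step at which Ddr2 went to 0 counts. At E15.5 Ddr1 stood at 266 CPM in XY and 19.6 CPM in XX cells (-3.76 ± 0.22, adjusted p = 5.873e-12). The sex difference of Ddr2 was not called at E15.5 (1.06 ± 0.75, adjusted p = 0.212). Of Ddr1 and 7 fibrillar collagen genes, 4 fell (24.8% of all genes) and 2 rose (27.1%) in XY cells from E11.5 to E12.5. Col1a1, a main chain of type I collagen, went from 413 to 1.67 CPM there (-7.93 ± 0.96, adjusted p = 1.172e-06).

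Other small leucine-rich proteoglycan genes were called in both directions at E12.5, where Dcn was called higher in XX cells and Lum was called neither way. Of 7 tested at E12.5, 2 were called higher in XX, 2 higher in XY and 3 neither way. Among all genes 30.5% were higher in XX and 31.5% in XY cells, so these counts say little about this family. Biglycan (Bgn) was higher in XX cells by 2.07 ± 0.24 (log2, SE; adjusted p = 2.245e-07, edgeR) and fibromodulin (Fmod) by 4.73 ± 0.52 (adjusted p = 9.959e-08). Dcn and Lum lie in a row of such genes on chromosome 10 of GRCm38, Dcn at chr10:97479609-97518143 and Lum at chr10:97565128-97572703, followed on the same strand by Kera and Epyc, with 46984, 34175 and 30375 bases between them. Epyc (epiphycan) had a sex difference opposite to that of Dcn, with 16.9 CPM in XY and 0.269 CPM in XX cells at E12.5 (-5.997 ± 0.51, adjusted p = 1.749e-09). Kera (keratocan) had at most 0.267 CPM in any library.

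Among relatives of the transcription factor genes, Mafk, which encodes a small MAF factor, was higher in XY cells at E12.5, with an XX minus XY difference of -3.84 ± 0.26 (log2, SE; adjusted p = 7.499e-11, edgeR). Of 3 further NR2 genes, 2 were higher in XX cells at E12.5 (30.5% of all genes), with Nr2f6 higher by 0.82 ± 0.16 (adjusted p = 0.000175). None of the 3 was called in either sex from E11.5 to E12.5.

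The XX rise of Lum from E13.5 to E15.5 came beside shifts in other lists, and Dcn was at 1.07 ± 0.53 (log2, SE; adjusted p = 0.144, edgeR) at this step. The surface epithelium list went from 358 to 378 CPM up to 507 to 533 CPM, the steroidogenic list from 189 to 205 CPM up to 293 to 322 CPM, and the germ cell list from 6.22 to 18.1 CPM up to 40.5 to 62.8 CPM. Of the 5 genes of each list, 1 rose and 1 fell among the surface epithelium genes, 1 rose and 2 fell among the steroidogenic genes, and 3 rose and 1 fell among the germ cell genes. The interstitial stroma list was at 547 to 644 CPM and then 568 to 713 CPM, and 1 of its 16 genes rose and 5 fell. The endothelial list was at 39.9 to 47.7 CPM and then at 40.0 to 44.8 CPM. Their part in the rise of Lum was not tested.

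For 7 of the 8 genes, the 2 genes with the most similar course over the 24 libraries are given, by Pearson correlation of log2(CPM + 1) among 11160 genes. They were Zim1 (0.977) and Rab8b for Nr2f2, Pmp22 (0.972) and Mpdz for Pdgfra, and Fzd4 (0.966) and Nefm for Nr2f1. Adam19 (0.972) and Fn1 were closest to Pdgfrb, Irag1 (0.977) and Unc5c to Ddr2, Mfap4 (0.954) and Col6a3 to Dcn, and Osr1 (0.944) and Angpt2 to Lum. Several encode matrix or matrix-bound proteins, as Mfap4, Col6a3 and Fn1 do. Libraries of a group share stage and sex, so these values only describe likeness. Within the 8 genes, Nr2f1 and Lum went from 0.656 to -0.00197 when the 6 E11.5 libraries were left out.

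Some of these counts carry a limit of annotation. In GENCODE M21, antisense or other transcripts of the opposite strand overlap Nr2f1 (1741 bases), Nr2f2 (1826), Maf (2156), Pdgfra (599 and 451) and Ddr2 (90). Whether strand was used in the counting is not given in the sources used here, so reads of the 2 strands cannot be told apart for these genes.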

How the data were processed

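Libraries were grouped by sex and stage from their titles. For XX E13.5 replicate 1 the title gives E13.5 and another field E12.5, and it was kept at E13.5. The expected counts (estimated, so not always whole) per gene were made and deposited by the authors, with mm10 as genome build per the submitters' processing notes, and the aligner, counter and strand setting are not given in the sources used here. Per the labels, cDNA from polyadenylated RNA was amplified, and no molecular identifiers are described. The TPM values were also computed and deposited by the authors. Of the count values, 17.5% were not whole and were rounded, and 7654 genes had no count.

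Rounded counts went into edgeR 4.0.16 under R 4.3.3 (filterByExpr, TMM, robust quasi-likelihood fit, 1 mean per group, 16 residual degrees of freedom, biological coefficient of variation 17.4%), with Benjamini-Hochberg adjustment over 16190 genes. Each SE was computed as the size of the log2 difference divided by the square root of the F statistic of its test. A 3-count floor was 0.0774 to 0.26 CPM, and it covers counting error only. The script was tested on simulated data. The members, lists and tests were chosen with earlier results of these data known. The genes named are the 8 members, genes of the lists and the 2 closest genes to each member with at least 10 CPM in a group, and some results under this rule are not reported here. Coordinates come from GENCODE M21 and RefSeq, both on GRCm38. Same-numbered libraries had correlated deviations over 0.1 in all 3 pairs (0.169, 0.132 and 0.351) in 1 of 12 comparisons, XX against XY at E11.5, which the labels do not explain. The alternatives were DESeq2 1.42.0, its size factors in edgeR, other filters, limma-trend (limma 3.58.1) on log2(TPM + 1) and log2(TPM + 0.1), a replicate block, fits of only the libraries compared, a log2 difference of at least 1, and leaving out each library. The block in the fit of 6 E11.5 libraries was added after seeing the data.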

Additional observations from a re-analysis of the deposited data

Results flagged for a closer look

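The XX minus XY difference changed with stage for 7 of the 8 genes by the interaction test of edgeR, which called 70.1% of all genes tested, so the count says little about these genes as a group. The adjusted p was 7.239e-05 for Nr2f1, 6.042e-07 for Nr2f2, 2.506e-09 for Pdgfra, 0.00189 for Pdgfrb, 7.49e-06 for Dcn, 0.0227 for Lum and 0.00105 for Ddr2. For Nr2f1 and Pdgfra all 3 XY libraries lay above all 3 XX libraries at E11.5 and below them at each later stage. For Nr2f2, whose groups overlapped at E11.5, the XX libraries lay above at the other stages. Pdgfrb, Dcn, Lum and Ddr2 had overlapping groups at E11.5, where XX replicate 3 was the highest XX library. The cause of the change with stage was not tested.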

How the results depend on the processing

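The counts of called members were recomputed under each alternative. A minimum of 10 counts in every library left 4 members to test, and the counts were then 2, 3 and 4 for XX against XY at E11.5, E12.5 and E13.5, 3 for the XX changes from E11.5 to E12.5 and to E15.5, 4 and 3 for the same XY changes, 1 for XY from E13.5 to E15.5, and 4 for any XX change, any XY change and the interaction. With that minimum 44.3%, 62.4% and 69.1% of all genes tested were called at E11.5, E12.5 and E13.5. Fits of only the libraries compared called 2 for XX against XY at E11.5, 3, 4 and 4 for the XX steps, and 4 for XY from E12.5 to E13.5. At E11.5 this fit called 17.7% of all genes, against 42% in the main fit. A log2 difference of at least 1 in addition left 2 at E11.5, beside 17.2% of all genes, and 1 for XY from E12.5 to E13.5. The fewer members called at E11.5 thus came with fewer genes called among all genes. DESeq2 called 1 in XX and 4 in XY cells from E12.5 to E13.5. Without a filter beyond 1 count, 0 were called in XX and 2 in XY cells from E13.5 to E15.5. Limma-trend called 2 in XX on log2(TPM + 0.1) and 2 in XY cells on log2(TPM + 1) at this step. With all genes above 0 it called 1 for the XY step and 4 for XX against XY at E13.5. At E13.5 this setting called 41.2% of all genes, against 66.1% in the main fit. Shares under the other settings are not given here.

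The replicate block called 2 (Lum and Nr2f1, -0.94, adjusted p = 0.0318) in XX cells from E13.5 to E15.5, and also Lum at E13.5 (2.12, adjusted p = 0.048) and the interaction of Maf (adjusted p = 0.0362). In the fit of all libraries it ended no call of a member. Same-number correlations ran from -0.193 to 0.351, and 10 of 36 libraries correlated best with their own number.

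Leaving out 1 library gave 3 to 7 called for XX against XY at E11.5, 0 to 2 for XX from E12.5 to E13.5, 0 to 2 for XX from E13.5 to E15.5, and 2 to 5 for XY from E13.5 to E15.5. Only the XX change of Lum from E11.5 to E15.5 was reversed past the threshold, at 2.52 without XX E11.5 replicate 3, and it ran from -0.98 to that value. The spread of each gene was estimated over all groups, so leaving out a library outside a comparison could also change its calls. Where a group had 2 libraries left, their spread was pooled with the other groups. Apart from those named, the causes were not tested. Depth limits Ddr2 and Pdgfrb in XY cells at E12.5 and E13.5, with at most 12 counts per library. The same limit holds for Dcn in XY cells at E12.5 and for Nr2f1 in XY cells at E15.5, and so for their fold values there.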
